A study of Rattus norvegicus with 5 samples.

Results

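The neurotrophin system of the cortex was read through 12 array probes of 8 genes: the ligands Bdnf, Ntf3 and Gdnf, the receptors Ntrk2, Ntrk3, Ngfr and Sort1, and the secreted protein gene Vgf. Every non-control probe whose gene name, or its current rat symbol, was one of these 8 genes was taken, which gave 8 of 35727 distinct gene names and 12 of 41012 probes, and each probe was kept apart. The kaolin group was parietal cortex of rats injected with kaolin on postnatal day 1, and the saline group was parietal cortex of rats injected with saline on the same day. Kaolin is a clay used to block the flow of cerebrospinal fluid and so to cause hydrocephalus, an enlargement of the ventricles. All tissue came from postnatal day 22, which was post-kaolin day 21, and no strain, genotype or sex is used here. On each of 5 two-colour arrays a kaolin sample labelled with Cy3 met a saline sample labelled with Cy5, and since the dyes were never exchanged, dye and treatment cannot be told apart. The labels do not say whether a sample was a single animal, so p-values measure the spread between arrays, which may in part be technical.

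Neurotrophins are secreted proteins that bind Trk receptor tyrosine kinases on neurons and support their survival, growth and synapses. Bdnf encodes the ligand of TrkB (Ntrk2) and is made by excitatory cortical neurons in response to activity, while Ntf3 encodes the main ligand of TrkC (Ntrk3). Ngfr encodes the receptor shared by all neurotrophins, which pairs with sortilin (Sort1) to bind the uncleaved precursors. Gdnf encodes a ligand of another family, which signals through Ret with a Gfra co-receptor. Vgf encodes a granin-like protein of dense-core vesicles whose gene is induced by neurotrophins and by activity.

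The values are log2 ratios of kaolin over saline on each array, and levels are normalised signals per channel, compared only within a probe. Of the 12 probes, 11 were bright enough to be tested, which asked for 3 or more arrays with either channel well above background. At an adjusted p under 0.05 in limma, 0 of 11 member probes passed, against 0.00% of the 29114 probes tested, where the smallest adjusted p was 0.243. At an unadjusted p under 0.05 in limma, 5 of 11 member probes passed, against 18.1% of all tested probes: 3 were higher in kaolin (8.82% of all) and 2 were lower (9.31% of all). They were Bdnf A_44_P219026, both probes of Ntrk2, which differed in sign, and both probes of Sort1, so they are not separate genes. The mean ratio was below 0 for 7 of 11 member probes (50.8% of all tested probes) and above 0 for 4 (49.2%). The median of the 11 means was -0.05, against -0.0033 over all tested probes. For none of the 11 did the 5 kaolin levels lie wholly above or wholly below the 5 saline levels, against 1.45% and 1.61% of all tested probes. An exact sign-flip permutation test is given beside the limma values of each member probe, and with 5 arrays its smallest two-sided p is 0.0625.

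The arrays did not run alike. Over all tested probes the ratios of replicate 2 correlated at -0.37, -0.172, -0.068 and -0.062 with those of replicates 1, 3, 4 and 5. Pairs among the other arrays correlated at 0.121 (replicates 1 and 5) to 0.825 (replicates 3 and 4). The labels state the dyes of every array, so the direction was kept, and values without replicate 2 are given where they change the call of a member probe. Replicate 5 came from a different slide than the other arrays, so the value without replicate 5 is the value within the first slide and the ratio of replicate 5 is that of the second. Microglial markers had ratio medians of -0.01, 0.11, 2.10, 1.35 and 1.57 on replicates 1 to 5 (7 of 7 genes with a mean above 0; summed signal 17752 to 87469 in kaolin and 15207 to 18443 in saline). Markers of all neurons had medians of -0.54, 0.27, -0.42, -0.26 and -0.29 (8 of 8 with a mean below 0; summed signal 131370 to 203962 in kaolin and 161641 to 206017 in saline). Markers of cortical excitatory neurons had medians of -0.45, 0.03, -0.23, 0.07 and -0.20 (5 of 6 tested with a mean below 0; summed signal 50888 to 70914 in kaolin and 69810 to 85380 in saline). All 8 neuronal markers and 6 of 6 tested markers of cortical excitatory neurons were well above background on every array. No choroid plexus marker passed the adjusted threshold in limma (6 of 6 tested had a mean below 0, from -2.85 for Ttr to -0.01 for Folr1; summed signal 6680 to 9994 in kaolin and 8532 to 65098 in saline), and the part of any of these cells in the results was not tested.

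**Figure D1:**
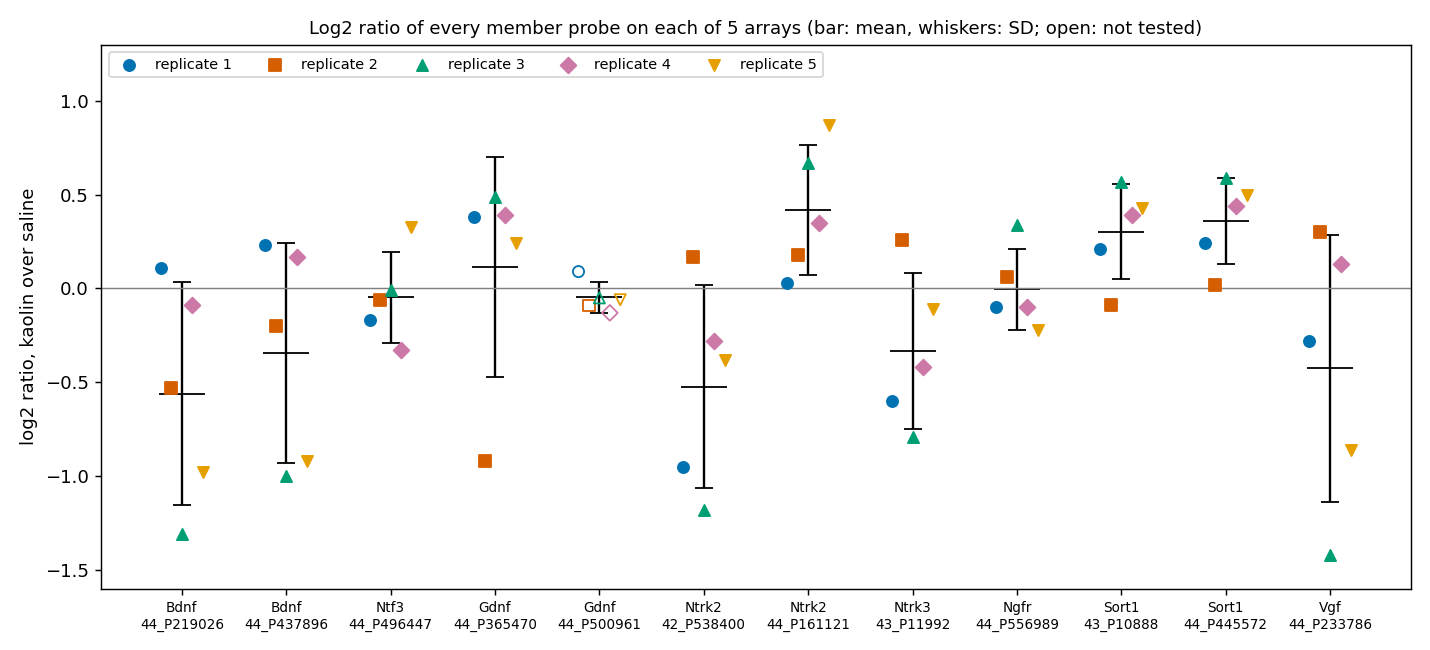
Log2 ratio of kaolin over saline (y axis) for each of the 12 probes (x axis), with a symbol for each of the 5 arrays, a bar at the mean and whiskers of 1 SD; open symbols mark the Gdnf probe that was not tested. Both Sort1 probes and 1 Ntrk2 probe lie mostly above 0, with means of 0.30, 0.36 and 0.42, while the Bdnf and Vgf probes spread from above 0 to below -0.86.

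Bdnf was read by a pair of probes on chromosome 3_random of rn4, the build of the array files, at 976345 to 976404 and at 979381 to 979440. Probe A_44_P219026 had levels of 671.5, 491.2, 290.4, 659.7 and 329.1 in kaolin cortex on replicates 1 to 5, against 620.6, 710.7, 719.1, 701.2 and 649.5 in saline cortex. The kaolin samples of replicates 3 and 5 were lowest, and that of replicate 2 also lay below every saline sample. Those of replicates 1 and 4 lay among the saline samples, which were close together. Its log2 ratios were 0.11, -0.53, -1.31, -0.09 and -0.98, with a mean of -0.56 ± 0.59 (SD, n = 5 arrays; 95% interval -1.06 to -0.06; limma p = 0.0325, adjusted p = 0.252; exact sign-flip permutation p = 0.1875). Probe A_44_P437896, printed as 10 spots per array, had levels of 595.4, 496.2, 260.1, 562.1 and 276.7 in kaolin cortex, against 507.2, 570.8, 518.5, 499.9 and 525 in saline cortex. Replicates 3 and 5 were again the lowest in kaolin, and replicate 2, at 496.2, lay just below the lowest saline level, 499.9. The log2 ratios of this probe had a mean of -0.34 ± 0.59 (SD, n = 5 arrays; 95% interval -0.84 to 0.15; limma adjusted p = 0.385; exact sign-flip permutation p = 0.375). Its spots agreed within an SD of 0.05 to 0.09 on an array, so the spread between arrays was several times that between spots. The probes lie 3036 bases apart and differed by -0.21 ± 0.12 on the log2 scale (A_44_P219026 minus A_44_P437896, SD, n = 5 arrays), with the same arrays low in both. Replicate 3 carried much of the mean: without it the probes averaged -0.37 and -0.18, and without replicate 5 they averaged -0.45 and -0.20.

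Vgf, on chromosome 12 at 20906265 to 20906324 (rn4), was also lowest in kaolin on replicates 3 and 5. Its levels were 27287, 30818, 10412, 34891 and 16652 in kaolin cortex, against 33177, 25069, 27840, 31908 and 30267 in saline cortex. The kaolin samples of replicates 3 and 5 lay below every saline sample, and the other kaolin samples did not. Replicate 2 differed from Bdnf: its kaolin sample lay above its own saline sample for Vgf and below every saline sample for Bdnf. The ratios were -0.28, 0.30, -1.42, 0.13 and -0.86, with a mean of -0.43 ± 0.71 (SD, n = 5 arrays; 95% interval -1.02 to 0.16; limma adjusted p = 0.371; exact sign-flip permutation p = 0.375). Without replicate 3 the mean was -0.18, and without replicate 5 it was -0.32. Median centring in place of loess gave -0.76, a setting that also lowered bright Gdnf probe A_44_P365470, from 0.12 to -0.20.

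The cAMP response element, the site of the activity-regulated factor CREB, is known from the promoters of both genes, so the windows of Bdnf and Vgf that hold its letters are shown. They are the 250 bases before a transcript start in RefSeq (GRCr8), with matches to TGACGTCA or to its shorter form CGTCA in capitals. The first is Bdnf window 4 of 6, at chr3:116637608-116637857 on the plus strand, and the second is Vgf at chr12:25277021-25277270 on the minus strand.
Bdnf: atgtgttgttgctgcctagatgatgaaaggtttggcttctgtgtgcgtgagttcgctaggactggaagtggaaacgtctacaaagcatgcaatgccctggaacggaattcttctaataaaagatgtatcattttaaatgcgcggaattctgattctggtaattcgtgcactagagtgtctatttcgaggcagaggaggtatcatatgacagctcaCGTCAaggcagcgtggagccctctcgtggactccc
Vgf: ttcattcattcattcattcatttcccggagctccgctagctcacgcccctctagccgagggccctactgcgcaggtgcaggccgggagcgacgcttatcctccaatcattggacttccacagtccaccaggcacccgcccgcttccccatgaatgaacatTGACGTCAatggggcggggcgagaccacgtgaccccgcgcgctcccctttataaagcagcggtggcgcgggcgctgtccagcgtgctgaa
The Bdnf window holds CGTCA from position -35 relative to the transcript start, and the Vgf window holds the full TGACGTCA from position -90, which contains CGTCA on both strands. Both strands were searched in 12 windows of 5 member genes: CGTCA was found in 3 (Bdnf window 4, Gdnf and Vgf) and TGACGTCA in 1 (Vgf). Over all 33469 promoter windows of the same length, CGTCA was found in 18.2% and TGACGTCA in 1.59%. These matches describe the letters of the windows and not binding.

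Gdnf gave a different reading from each of its probes, which lie 19955 bases apart on chromosome 2. Probe A_44_P365470, at 57403890 to 57403949 (rn4), was bright, with levels of 22930, 14970, 27349, 24645 and 18262 in kaolin cortex, against 17621, 28348, 19466, 18865 and 15428 in saline cortex. Kaolin was above saline on 4 arrays and below it on replicate 2. The ratios were 0.38, -0.92, 0.49, 0.39 and 0.24, with a mean of 0.12 ± 0.59 (SD, n = 5 arrays; 95% interval -0.38 to 0.61; limma adjusted p = 0.776; exact sign-flip permutation p = 0.75). Without replicate 2 the mean was 0.37 and the limma adjusted p was 0.048, a setting in which 2.41% of all tested probes were called higher. Probe A_44_P500961, at 57423845 to 57423904, was printed as 10 spots and was not well above background on any array in either channel. Its raw signals were 23.32 to 28.33 in kaolin and 58 to 66.24 in saline, which is near the local background of each channel, so no fold is given. Which transcripts the probes read was not tested, since no gene models on rn4 were used.

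Ntf3 (A_44_P496447, chromosome 4 at 162436573 to 162436632, rn4) was dim, being well above background on 3 of 5 arrays in each channel. Its levels ran from 79.05 to 97.58 in kaolin and from 77.86 to 104.5 in saline. The ratios were -0.17, -0.06, -0.01, -0.33 and 0.33, with a mean of -0.05 ± 0.24 (SD, n = 5 arrays; 95% interval -0.29 to 0.19; limma adjusted p = 0.808; exact sign-flip permutation p = 0.5625).

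The probes of Ntrk2, the receptor of the Bdnf protein, differed in sign. They lie 259101 bases apart on chromosome 17, at 11495183 to 11495242 and at 11754284 to 11754343 (rn4), and the gene runs from high to low coordinates. Ntrk2 is known to give full-length and truncated receptors, the truncated form being abundant in astrocytes. Probe A_42_P538400, printed as 10 spots, had levels of 12474, 19528, 11462, 18102 and 19955 in kaolin cortex, against 24086, 17345, 25965, 21924 and 26024 in saline cortex. Kaolin was lower on 4 arrays, most on replicates 1 and 3, and higher on replicate 2. Its ratios were -0.95, 0.17, -1.18, -0.28 and -0.38, with a mean of -0.52 ± 0.54 (SD, n = 5 arrays; 95% interval -0.98 to -0.07; limma p = 0.0303, adjusted p = 0.249; exact sign-flip permutation p = 0.125). Probe A_44_P161121 had levels of 1785, 1786, 2487, 1714 and 2173 in kaolin cortex, against 1743, 1571, 1562, 1345 and 1186 in saline cortex. Kaolin was higher on all 5 arrays, by little on replicate 1. Its ratios were 0.03, 0.18, 0.67, 0.35 and 0.87, with a mean of 0.42 ± 0.35 (SD, n = 5 arrays; 95% interval 0.11 to 0.73; limma p = 0.0147, adjusted p = 0.243; exact sign-flip permutation p = 0.0625). A ratio above 0 on every array was seen for 2 of 11 member probes (6.23% of all tested probes), and a ratio below 0 on every array for 0 of 11 (6.64%). The difference between the probes (A_42_P538400 minus A_44_P161121) was -0.98, -0.01, -1.85, -0.63 and -1.26, with a mean of -0.95 ± 0.69 (SD, n = 5 arrays; exact sign-flip permutation p = 0.0625, the smallest this test can give). Median centring in place of loess gave -0.84 for A_42_P538400 and 0.24 for A_44_P161121. The 7 astrocyte markers did not move together: 3 had a mean above 0 and 4 below, with a median of means of -0.01 and medians of -0.16, 0.26, 0.44, 0.01 and 0.26 on replicates 1 to 5 (summed signal 52278 to 87713 in kaolin and 58743 to 68871 in saline). Among them the filament gene Gfap averaged 1.81 ± 1.23 and Slc1a2, a glutamate transporter gene, averaged -0.07 ± 0.31 (SD, n = 5 arrays). The part of astrocytes or neurons in these values was not tested.

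Ntrk3 (A_43_P11992, chromosome 1 at 133925545 to 133925604, rn4) had levels of 6924, 8792, 6082, 8598 and 11065 in kaolin cortex, against 10487, 7345, 10540, 11473 and 11918 in saline cortex. Kaolin was lower on 4 arrays and higher on replicate 2, as with Ntrk2 probe A_42_P538400. The ratios were -0.60, 0.26, -0.79, -0.42 and -0.11, with a mean of -0.33 ± 0.42 (SD, n = 5 arrays; 95% interval -0.69 to 0.03; limma p = 0.0671, adjusted p = 0.297; exact sign-flip permutation p = 0.1875). Without replicate 3 the mean was -0.22, and median centring gave -0.60. In bulk tissue, fewer cells of a type and less RNA per cell cannot be told apart.

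Sort1 gave the closest agreement between probes. Probe A_43_P10888, on chromosome 2 at 203918361 to 203918420 (rn4), had levels of 675.9, 698.3, 891.6, 706.2 and 770.4 in kaolin cortex, against 585, 741.8, 600.2, 538 and 573.1 in saline cortex. Probe A_44_P445572, at 203927627 to 203927686, had levels of 736.3, 778.1, 944, 928.8 and 880.7 in kaolin cortex, against 622.9, 765.4, 628, 685 and 623.3 in saline cortex. In both probes kaolin was higher on replicates 1, 3, 4 and 5, and the groups overlapped through replicate 2, whose saline sample was the highest of its group. The ratios of A_43_P10888 were 0.21, -0.09, 0.57, 0.39 and 0.43, with a mean of 0.30 ± 0.25 (SD, n = 5 arrays; 95% interval 0.06 to 0.55; limma p = 0.0232, adjusted p = 0.243; exact sign-flip permutation p = 0.125). Those of A_44_P445572 were 0.24, 0.02, 0.59, 0.44 and 0.50, with a mean of 0.36 ± 0.23 (SD, n = 5 arrays; 95% interval 0.13 to 0.59; limma p = 0.00777, adjusted p = 0.243; exact sign-flip permutation p = 0.0625). The probes differed by -0.06 ± 0.04 (A_43_P10888 minus A_44_P445572, SD, n = 5 arrays). With arrays weighted by their fit the limma adjusted p was 0.042 for each. That is the lowest adjusted p of that fit, in which 3476 probes were called. Many probes can share such a value, so it does not rank the Sort1 probes first. Without replicate 2 the limma adjusted p was 0.046 for A_44_P445572 and 0.051 for A_43_P10888. In these settings 5.40% and 2.41% of all tested probes were called higher (11.9% and 5.21% in either direction). For each Sort1 probe the limma adjusted p was 0.659 without replicate 3 and 0.575 without replicate 4. No tested probe had a lower value in those fits. The means there were 0.24 and 0.28 for A_43_P10888, and 0.30 and 0.34 for A_44_P445572. Without replicate 5 the limma adjusted p was 0.382 for A_43_P10888 and 0.366 for A_44_P445572, and 0.366 was the lowest of that fit. Median centring gave smaller means, 0.15 for A_43_P10888 (limma adjusted p = 0.342) and 0.20 for A_44_P445572 (limma adjusted p = 0.202). The microglial medians given above were also highest on replicates 3, 4 and 5, and their part in the result was not tested.

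Ngfr (A_44_P556989, chromosome 10 at 84263082 to 84263141, rn4) was dim but well above background on every array, with levels of 89.21 to 128.1 in kaolin and 101.2 to 112 in saline. Its ratios were -0.10, 0.06, 0.34, -0.10 and -0.22, with a mean of -0.0014 ± 0.22 (SD, n = 5 arrays; 95% interval -0.22 to 0.22; limma adjusted p = 0.994; exact sign-flip permutation p = 1.0). The SD between its 10 spots was 0.08 to 0.15 on an array.

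**Figure D2:**
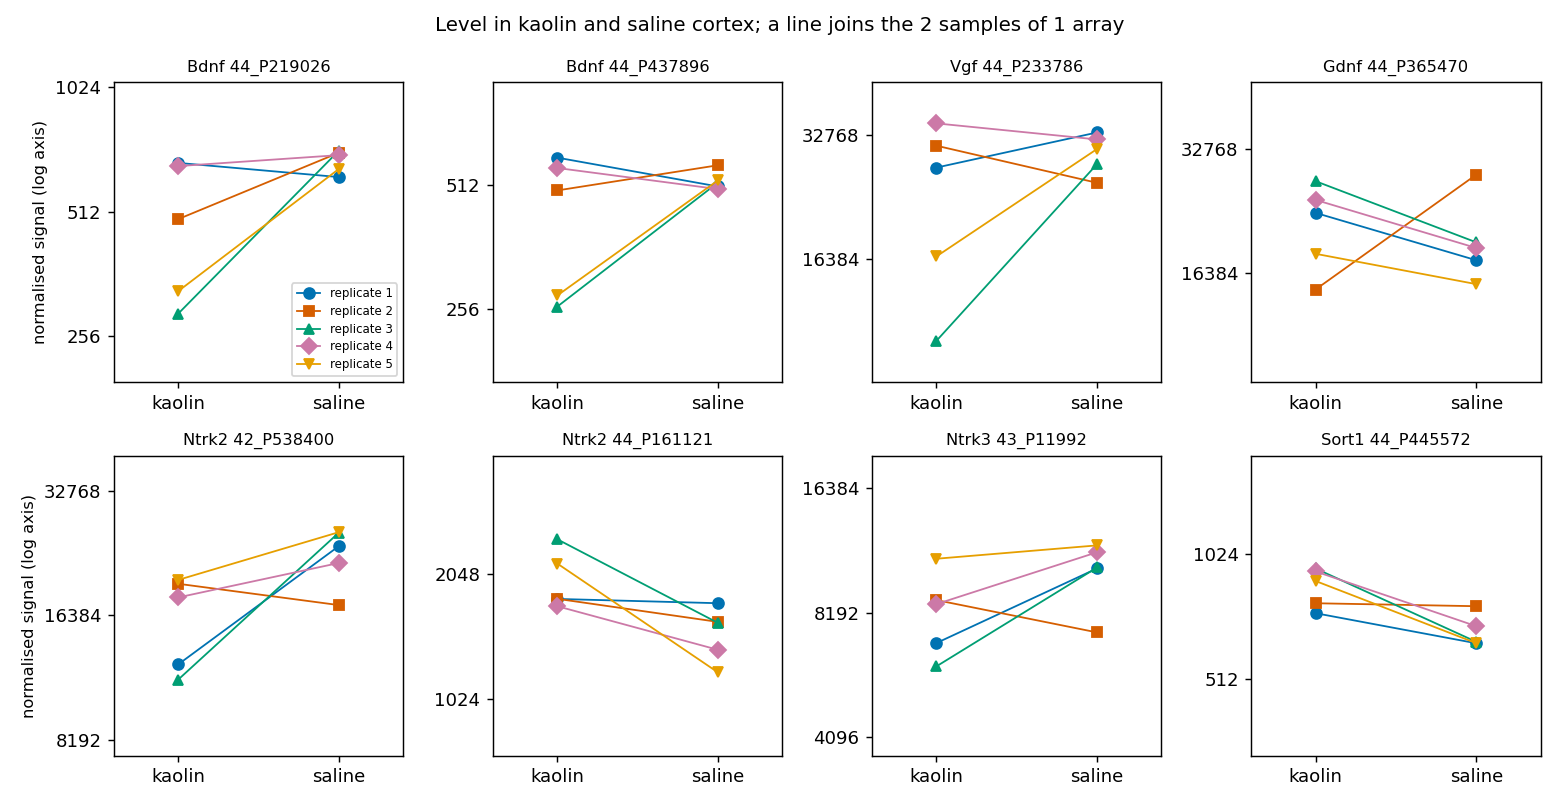
Normalised signal (log axis) of 8 member probes in kaolin and saline cortex, with a line joining both samples of an array. For Bdnf and Vgf the kaolin samples of replicates 3 and 5 lie below all saline samples, as does that of replicate 2 for Bdnf only. For Gdnf replicate 2 runs against the other arrays.

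The rest of the pathway was described through 6 lists naming 105 genes in all, each tested gene by its brightest tested probe. Listed genes with no probe under their symbol, or with none tested, have no value. Of the tested genes, 0 of any list passed the adjusted threshold in limma in either direction. Of 8 other ligands, 4 had a mean above 0 and 4 below, with a median of 0.01. Nrtn, a ligand of the Gdnf family, averaged 0.56 ± 0.42 (SD, n = 5 arrays; limma adjusted p = 0.243). Of 15 other receptors and co-receptors, 7 had a mean above 0 and 8 below, with a median of -0.0036. Gfra1, the co-receptor of the Gdnf protein, averaged 0.55 ± 0.58, and Ret, its signalling receptor, averaged 0.85 ± 1.20, with ratios from -0.27 to 2.66 (SD, n = 5 arrays). Gfra2 averaged -0.25 ± 0.47, the sorting receptor gene Sorl1 averaged -0.37 ± 0.67 and Sorcs2 averaged 0.02 ± 0.07.

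Of 13 tested genes for the cleavage of proneurotrophins and for dense-core vesicles, 4 had a mean above 0 and 9 below, with a median of -0.06. Chgb, a granin of these vesicles, averaged -0.70 ± 0.51, with ratios of -1.10, 0.14, -0.98, -0.61 and -0.97 (limma adjusted p = 0.243). Plat, the plasminogen activator whose product cleaves the Bdnf precursor through plasmin, averaged 0.43 ± 0.28 and was above 0 on 5 of 5 arrays (limma adjusted p = 0.243). The convertase gene Furin averaged -0.01 ± 0.14, Pcsk1 averaged -0.24 ± 0.42 and the granin gene Scg2 averaged -0.08 ± 0.48. Of 19 adaptors, 9 had a mean above 0 and 10 below, with a median of -0.01. Kidins220, a scaffold of Trk receptors, averaged -0.39 ± 0.36, Crk averaged 0.25 ± 0.17, Plcg1 averaged -0.13 ± 0.19 and Shc3 averaged -0.01 ± 0.16. Of 22 tested relay genes, 11 had a mean above 0 and 11 below, with a median of 0.0009. Rps6ka1, a ribosomal protein kinase gene, averaged 0.66 ± 0.41, Creb1 averaged 0.21 ± 0.16 and Akt1 averaged 0.20 ± 0.13 (SD, n = 5 arrays each).

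Among genes that activity or the Bdnf protein induces, 19 of 21 tested had a mean below 0 and 2 above, against 50.8% below 0 among all tested probes. Their median of means was -0.28, and the medians on replicates 1 to 5 were 0.04, -0.19, -0.59, -0.02 and -0.54. Neuronal marker lists also had most means below 0: 8 of 8 for all neurons, 5 of 6 for cortical excitatory neurons and 4 of 6 for interneurons. Their medians of means were -0.23, -0.10 and -0.15, and the part of these cells was not tested. An unadjusted p under 0.05 in limma was reached by 6 of 21, all with a mean below 0, against 9.31% of all tested probes in that direction. The list was chosen with earlier results of these data known, so the count is a description and not a test. In the relay list, 4 of 22 reached it with a mean above 0 (8.82% of all tested probes) and 1 with a mean below 0. Arc, a synaptic immediate early gene, had ratios of -0.02, -0.33, -2.04, -0.33 and -2.47 and a mean of -1.04 ± 1.13 (SD, n = 5 arrays; limma adjusted p = 0.250). Egr1, an immediate early transcription factor, averaged -0.65 ± 0.68 and Homer1 averaged -0.27 ± 0.36, both lowest on replicates 3 and 5. Npy, an interneuron peptide, averaged -0.32 ± 0.16 and was below 0 on 5 of 5 arrays (limma adjusted p = 0.243). Fos averaged -0.05 ± 0.48 and Nptx2 averaged -0.04 ± 0.48, so not every member was low. The median of means was -0.21 without replicate 3 (15 of 21 below 0) and -0.18 without replicate 5, which is the value within the first slide (17 of 21). It was -0.17 with the sign of replicate 2 turned (16 of 21) and -0.49 with median centring (20 of 21). Over all tested probes the medians in these settings were -0.0017, -6e-04, -0.0056 and -0.0959, and the share below 0 was not counted. Median centring also moved the median of the neuronal markers from -0.23 to -0.58.

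**Figure D3:**
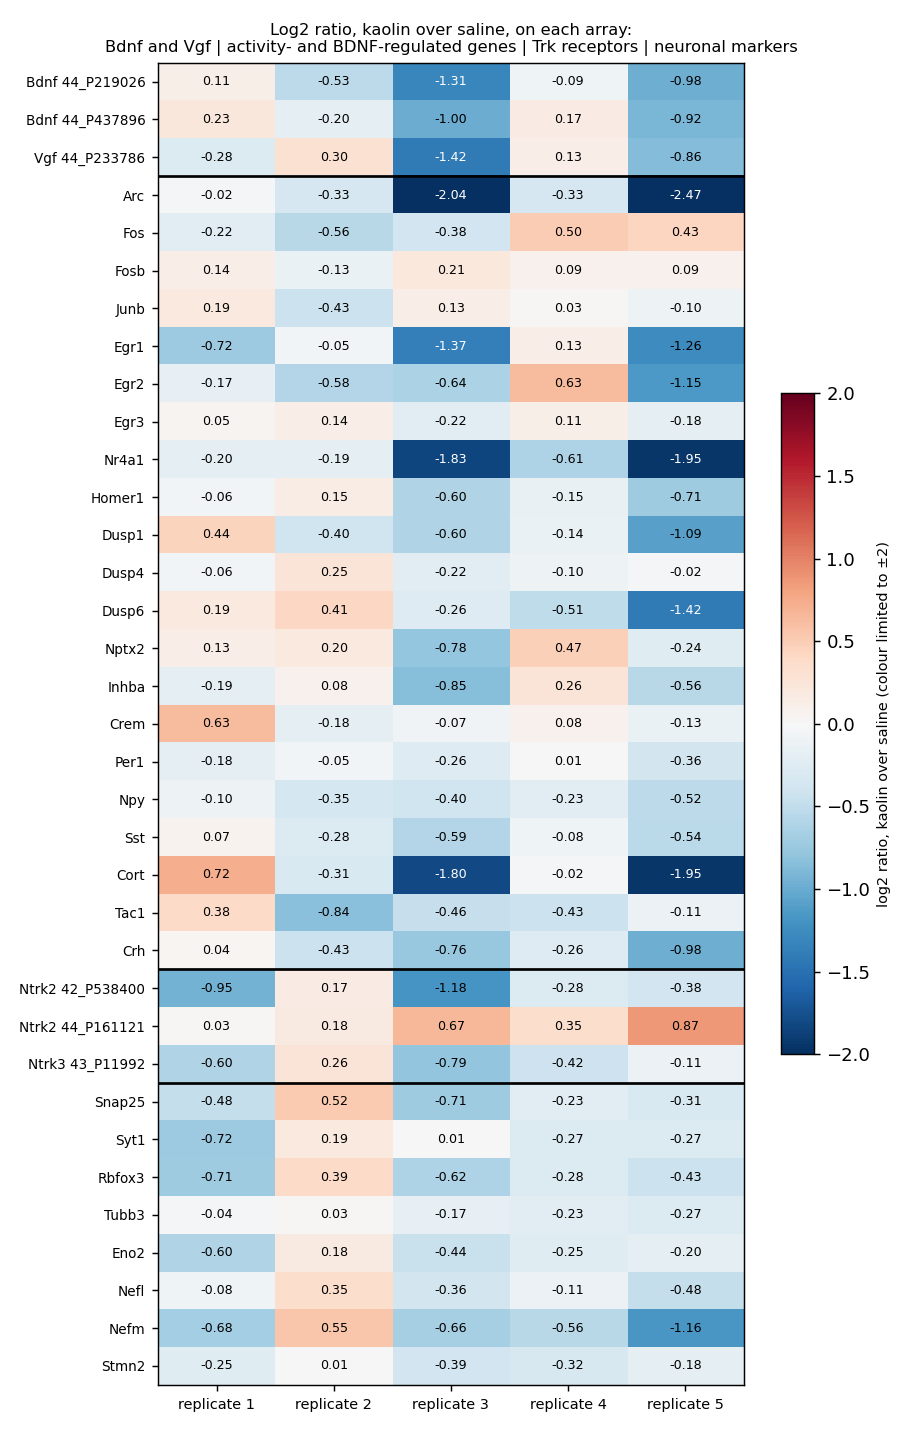
Log2 ratio of kaolin over saline on each array (columns) for Bdnf and Vgf, the activity- and BDNF-regulated genes, the Trk receptors and the markers of all neurons (rows, in that order down the page), with blue below 0 and red above. Bdnf, Vgf and Arc are lowest on replicates 3 and 5, while Ntrk2 probe A_42_P538400 and Ntrk3 are lowest on replicates 1 and 3.

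The genes most like the Bdnf probe with the largest mean, A_44_P219026, were sought among 15583 probes with an official symbol by the root-mean-square difference of the 5 log2 ratios. The nearest was Crhbp, which encodes the binding protein of corticotropin-releasing hormone, at 0.12, with ratios of -0.05, -0.57, -1.25, -0.28 and -0.93. Crh, the gene of that hormone, followed at 0.26 and Mas1 at 0.28, while the other Bdnf probe lay at 0.24. These distances rest on 5 arrays.

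**Figure D4:**
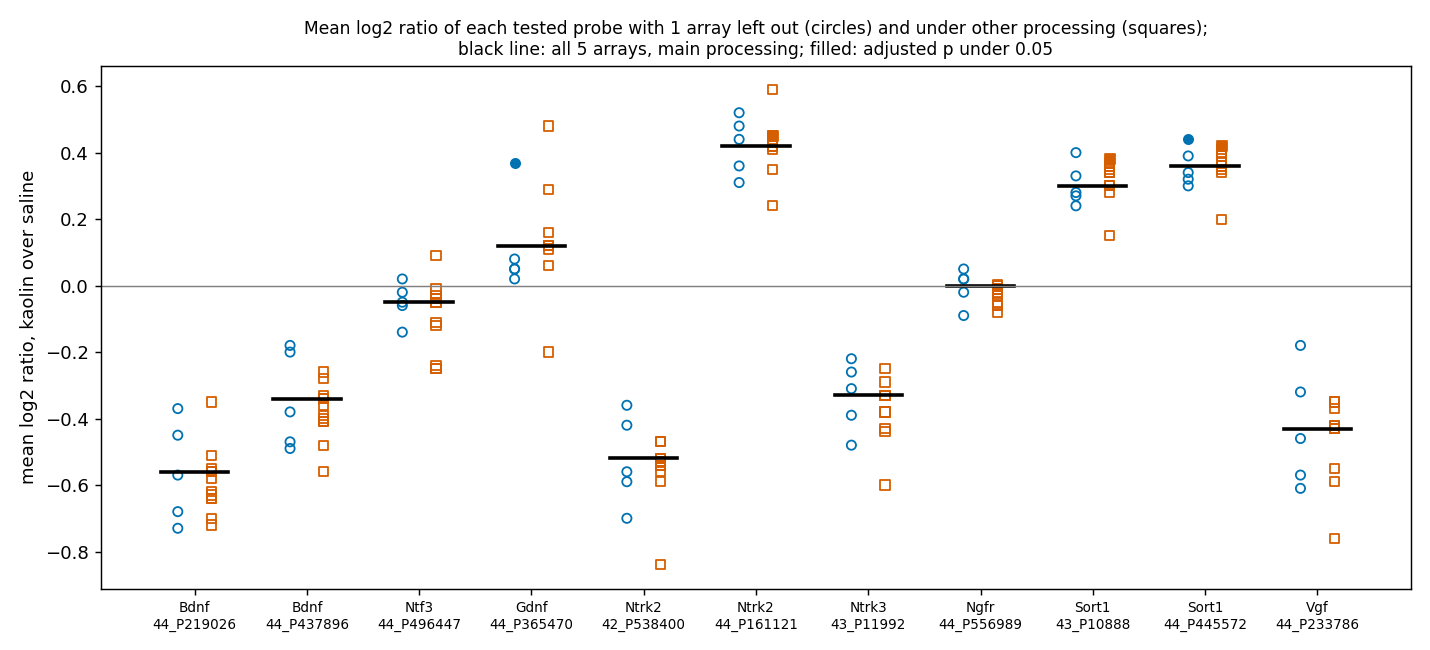
Mean log2 ratio of kaolin over saline for each tested probe with 1 array left out (circles) and under other processing (squares), with a black line at the mean over all 5 arrays and filled symbols where the limma adjusted p was under 0.05. The Bdnf, Vgf, Ntrk2, Ntrk3 and Sort1 probes keep their sign under every setting drawn, and those of Ntf3, Gdnf and Ngfr do not.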

How the data were processed

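Parietal cortex RNA was measured on 5 two-colour Agilent rat arrays. Per the file headers, Agilent Feature Extraction 10.1.1.1 made the scanner files: mean and background signals are raw intensity values, processed signals are dye-normalized intensity values, and the software's ratio of red to green is on a log10 scale. Flags of 0 or 1 mark background, saturation and outlier spots (other values, per the file headers). Values in the deposited series matrix are log2 of green over red, a direction found by setting it against the scanner values; over tested probes 99.83% to 99.92% of its values lay within 0.01 of the software's log ratio, and its column medians ran from -0.1027 to 0.09323.

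Background was treated with normexp (offset 50) on the mean spot signal and its local background, followed by loess within arrays with control spots at weight 0. Spots flagged as outliers (86 to 147 per array) were left out and spots of a probe averaged; no spot was saturated. Channel levels used Aquantile. A probe was tested when 3 or more of the 5 arrays had either channel well above background (29114 of 41012), judged by the majority of its spots or a tie. The ratio was fitted as an intercept against 0 with lmFit and eBayes in limma 3.58.1 (R 4.3.3; data.table, version 1.17.8), two-sided, Benjamini-Hochberg adjusted over tested probes, at 0.05. The array pairs the samples, as 1 kaolin and 1 saline sample share it. The number of arrays limits the precision. The fit was run on simulated data whose noise was smaller than that of many probes here, which says nothing about its power on these arrays.

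The members and lists were chosen with earlier results of these data known. Every member probe is named, with a panel of list genes named whatever their values (1 of them is not reported here), the gene of the smallest p in each list, and the 3 probes most like the member with the largest mean. Probe positions come from the scanner files (rn4). Promoter windows are from RefSeq (GRCr8).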

Additional observations from a re-analysis of the deposited data

Results flagged for a closer look

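For each of 11 tested member probes, 3 groups of 5 values were examined for a sample far from the others (33 groups in all): the log2 ratios, the kaolin levels and the saline levels. A sample was set apart when its gap to the nearest other, divided by the range, passed Dixon's critical value of 0.71, which chance passes in about 1 in 20 groups. This picked out 2 values, both of replicate 2. The log2 ratio of kaolin over saline for Gdnf probe A_44_P365470 was -0.92 there, at a gap of 0.82 of the range. The log2 level of Ntrk3 in the saline sample was 12.84 there, a signal of 7345, at a gap of 0.74 of the range.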

How the results depend on the processing

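Over all member probes and alternatives, 184 values kept their sign and side of the threshold, 8 changed sign and 5 passed the threshold. The changes of sign were in probes with means near 0. Ntf3 gave 0.09 with slide as a term, a fit that weighs both slides equally and so replicate 5 as much as the other arrays together. It gave -0.14 to 0.02 with 1 array left out (0.02 without replicate 4). Gdnf gave -0.20 with median centring. Ngfr gave 0.0031 with median centring, 0.0010 with array weights and -0.09 to 0.05 with 1 array left out (0.02 without replicate 1 or 4, 0.05 without replicate 5). The cause was not tested.

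The count of probes called, 0 with all 5 arrays, was 22 with median centring (0 higher and 22 lower), 3476 with array weights (1571 higher and 1905 lower), 487 with the sign of replicate 2 turned, and 0 to 1518 with 1 array left out (1 without replicate 1, 1518 without replicate 2, 0 without replicate 3, 4 or 5). Without the pairing of samples by array (no replicate block) it was 3, none a member. The array weights were 0.7825, 0.4609, 1.368, 2.379 and 0.8521 for replicates 1 to 5. Member probes called were Ntrk2 A_44_P161121 (0.45, limma adjusted p = 0.048) and both Sort1 probes (0.38 and 0.42) with array weights, and Gdnf A_44_P365470 (0.37) and Sort1 A_44_P445572 (0.44) without replicate 2. With array weights, where 11.9% of all tested probes were called, calls numbered 1 of 8 other ligands (Nrtn), 0 of 15 other receptors, 2 of 13 in processing (Chgb lower, Plat higher), 2 of 19 adaptors (Crk higher, Kidins220 lower), 2 of 22 in the relay (Rps6ka1 among them) and 1 of 21 activity genes (Npy). With 1 array left out they ranged from 0 to 1 among other ligands and in processing, with 1 each without replicate 2, where 5.21% of all tested probes were called. Among markers of neurons, astrocytes and microglia, leaving out replicate 2 called C1qb, Tyrobp and Aif1 (microglia) and Gfap higher, and Nefm, Rbfox3 and Nrgn lower; turning its sign called Nefm and Rbfox3 lower.

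The software's log ratio and the authors' matrix hold nearly the same values for tested probes and count as a single check. Requiring both channels well above background on all arrays left 25727 probes and no value for Ntf3. Median centring moved the median of all tested probes to -0.0959 and lowered the mean of every tested member probe except those of Ntf3 and Ngfr. Signal over background limits Ntf3, Ngfr and Gdnf A_44_P500961, and 5 arrays with no exchange of dyes limit every value.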
